A study of Mus musculus with 39 samples.

Results

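The testis of INSL3-KI mice was compared between postnatal day 40 (P40) and postnatal day 23 (P23), to follow what happened to the undescended testis between these ages. The members were the 6 testis libraries that the sample labels place in the INSL3-KI genotype at these ages, 3 at P23 and 3 at P40, of 39 RNA-seq libraries in the series. INSL3-KI mice are C57BL/6J males in which the coding sequence of mouse Insl3 at its own locus is replaced by a minke whale INSL3 cDNA. According to the methods, the line was used as homozygotes after removal of the selection cassette. Both ages carry this allele, no treatment or surgery is labelled, and the testes stayed in the inguinal region according to the study. WT testis at P40 (3 libraries), INSL3-KI testis at P8 (3) and WT testis at P23 (3, in another count table) are given as levels beside them. The libraries are whole testes, so in all that follows fewer cells of a type and less RNA per cell cannot be told apart.

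INSL3 is a peptide hormone of Leydig cells that acts through the receptor RXFP2 on the gubernaculum and draws the fetal testis toward the scrotum. In the juvenile mouse testis the first wave of germ cells passes from spermatogonia through meiotic spermatocytes to round and then elongating spermatids, while adult Leydig cells take over steroid synthesis. Spermatocytes and spermatids are known to be lost when a testis is held at body temperature, while Sertoli cells, Leydig cells and many spermatogonia persist.

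The 6 libraries held between 36105922 and 42629270 counts, of which 2.95% to 3.26% fell on loci outside the Ensembl annotation. Levels are given as CPM, that is counts divided by the library total and brought to 1 common total, after scaling by the trimmed mean of M values (TMM). Biological replicates are labelled as such, but p-values measure only the spread between these libraries. The defining markers of testis were present in all 6, with Ddx4 between 94.1 and 693 CPM and Wt1 between 108 and 318 CPM. The libraries of each age were far apart. P23 replicate 3 correlated at 0.988 with P40 replicate 1 over log2 CPM, but only at 0.953 and 0.931 with P23 replicates 1 and 2, which correlated at 0.990 with each other. P40 replicates 2 and 3 correlated at 0.994 with each other and at 0.946 and 0.945 with P40 replicate 1. These correlations run over genes, which are not independent replicates, and describe the libraries only. The biological coefficient of variation was 0.371 at P23 and 0.408 at P40 in INSL3-KI testis, against 0.146 in WT testis at P40. Single libraries are therefore given throughout.

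With edgeR's quasi-likelihood test over 16491 genes, 0 genes were called higher and 0 lower at P40 than at P23 (0% called), where a call needs a fold change of 2 or more and an adjusted p below 0.01. The smallest adjusted p was 0.0997. At an unadjusted p under 0.05 there were 7672 genes, and at an adjusted p under 0.1 there were 5584. DESeq2, the tool that the study used, called 305 genes higher at P40 (1.74% of 17491 tested) and 898 lower (5.13%) from the same counts. A fit of all 15 testis libraries of the table in edgeR called 370 higher (2.09%) and 1026 lower (5.8%), and limma on FPKM called 0. Without P23 replicate 3 and P40 replicate 1, the libraries of each age nearest to the other age, edgeR called 3223 higher and 4370 lower; these 2 libraries were chosen after the data were seen, and leaving them out by construction keeps the most distant ones. Calls named below are those of DESeq2, and none of them was called by edgeR with the 6 libraries alone. Log2 fold changes and their standard errors are those of edgeR unless stated, also where a DESeq2 adjusted p stands beside them. In 3931 genes (23.8%) all 3 P40 libraries were above all 3 P23 libraries, and in 2983 (18.1%) all 3 were below, 41.9% together. The gene lists below are read against these shares. With the libraries scaled instead on the summed Sertoli cell list (Sertoli scaling), 2.49% of all genes were higher and 42.5% lower without overlap, and counts under that scaling are read against those.

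With TMM, germ-cell lists from meiosis onward had larger shares of genes lower in all 3 P40 libraries than all genes did (18.1%). With Sertoli scaling 20 of 58 axoneme genes and 7 of 19 late spermatocyte genes were lower, both under the share of all genes (42.5%). The other lists from meiosis onward stayed above it, as with 15 of 29 genes for meiotic recombination. Of 29 tested genes for meiotic recombination 10 were lower in all 3 P40 libraries, and of 31 tested genes for the fibrous sheath and outer dense fibres of the sperm tail 25 were. Among 20 tested genes of spermatogonial stem cells, 0 were lower in all 3 P40 libraries and 5 were higher with TMM, and 6 were lower and 0 higher with Sertoli scaling. The share higher was near that of all genes with TMM, and the share lower was under that of all genes with Sertoli scaling. Among 11 tested genes of differentiating spermatogonia 3 were higher and 1 lower with TMM, and 0 and 7 with Sertoli scaling.

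**Figure D1:**
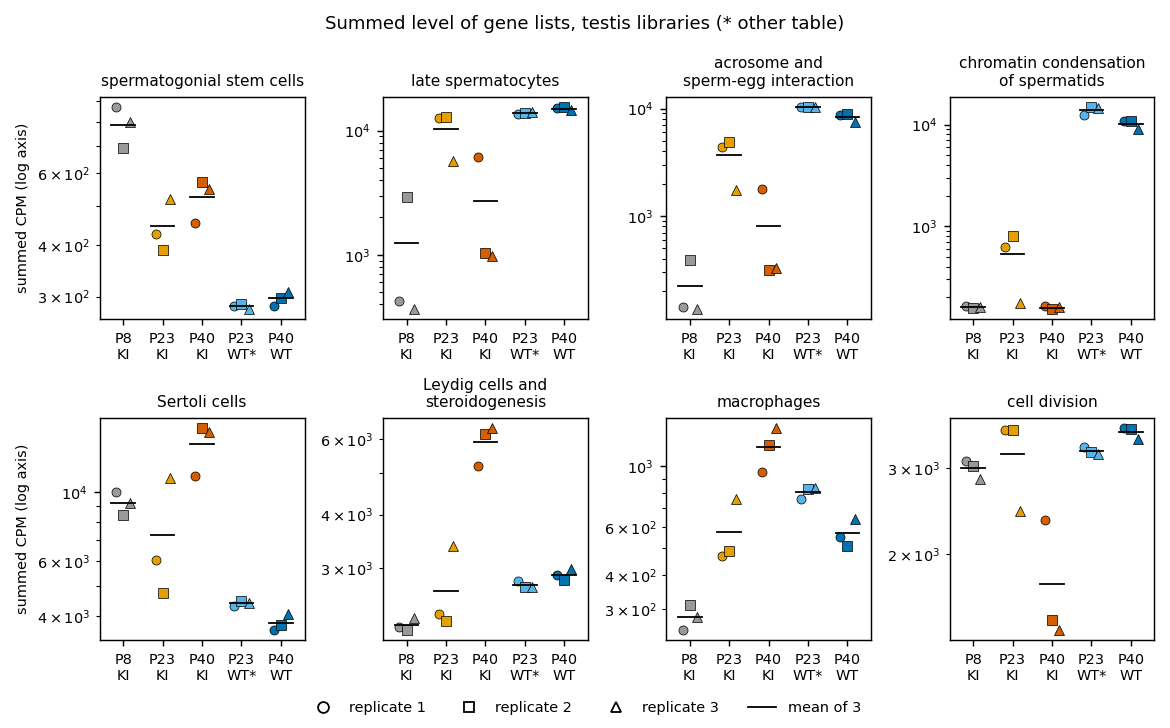
Summed CPM (log axis, a separate range in each panel) of 8 gene lists in single testis libraries of INSL3-KI (KI) and WT mice; symbols mark the replicate, lines the mean of 3, and the asterisk marks WT testis at P23, which stands in another count table. Late spermatocyte sums in P23 replicate 3 (5720) and P40 replicate 1 (6102) lie together between the other P23 and the other P40 libraries, while Leydig cell sums at P40 (5199 to 6381) all lie above those at P23 (2256 to 3369) on the TMM scale.

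Gfra1, the GDNF receptor subunit of stem spermatogonia, was at 9.35, 10.4 and 6.27 CPM in P23 replicates 1, 2 and 3 and at 7.31, 9.38 and 9.33 CPM at P40. Its groups overlapped. At P8 in the same genotype it was at 17.2, 10.4 and 19.2 CPM (mean 15.6 CPM), so P8 replicate 2 was level with P23 replicate 2. Stra8, which licenses the entry into meiosis, stood at 35.7, 35.7 and 27.8 CPM at P23 and 26.4, 30.9 and 27.5 CPM at P40. Kit, the receptor of differentiating spermatogonia that Leydig cells also carry, was at 51.01, 49.1 and 66.7 CPM at P23 and at 73.2, 82.1 and 76.5 CPM at P40. Kit was thus higher in all 3 P40 libraries (log2 fold change 0.48 ± 0.17, SE, n = 3 against 3; edgeR adjusted p = 0.0997), a sign that turned under Sertoli scaling. Etv5, a GDNF-regulated transcription factor of stem cells that Sertoli cells also express, measured 50.7, 40.7 and 73.9 CPM at P23 and 78.8, 97.8 and 89.8 CPM at P40, again without overlap and again with a sign that turned under Sertoli scaling. Id4 went the other way in 2 of the 3 P40 libraries, with 79.0, 77.0 and 51.5 CPM at P23 and 58.3, 32.8 and 25.8 CPM at P40, and its groups overlapped.

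Genes of the meiotic chromosome axis were lower or overlapped. Sycp3, a protein of the lateral elements, was at 248, 210 and 217 CPM at P23 and at 181, 69.2 and 44.3 CPM at P40. All 3 P40 values were below all 3 P23 values, and P40 replicate 1 was the nearest to them. The fold change was -1.20 ± 0.52 on the log2 scale (edgeR adjusted p = 0.113, DESeq2 adjusted p = 0.0525), and -1.98 without P40 replicate 1. Dmc1, the meiotic recombinase, was at 25.02, 27.1 and 25.4 CPM at P23 and at 20, 17.6 and 12.7 CPM at P40. Here P23 replicate 3 stood with its own age. Rec8, the meiotic cohesin subunit, did not separate, at 38.7, 45.7 and 40.5 CPM against 31.3, 42.9 and 37.6 CPM (log2 fold change -0.16 ± 0.17, edgeR adjusted p = 0.458). Over the list of the axis and synaptonemal complex, 8 of 19 tested genes were lower in all 3 P40 libraries and 0 were higher, and DESeq2 called 0 of the 20 it tested.

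For late spermatocyte genes P23 replicate 3 and P40 replicate 1 lay between the other libraries. Ccna1, the cyclin of late meiotic prophase, was at 169, 204 and 57.7 CPM at P23 and at 59.3, 5.82 and 5.66 CPM at P40. P23 replicate 3 and P40 replicate 1 were nearly equal, and P40 replicates 2 and 3 were the lowest but above the P8 mean of 0.796 CPM. Pgk2, the retrogene that replaces the X-linked glycolytic kinase in spermatocytes, showed 360, 377 and 139 CPM at P23 and 117, 14.7 and 17.3 CPM at P40. Hspa2, the chaperone of spermatocytes, showed 2041, 2135 and 1053 CPM at P23 and 999.9, 219 and 193 CPM at P40. In both genes all 3 P40 libraries were lower, P40 replicate 1 by a small margin. Summed over the late spermatocyte list, P23 replicates 1, 2 and 3 held 12580, 12850 and 5720 CPM and P40 replicates 1, 2 and 3 held 6102, 1041 and 982 CPM. DESeq2 called 1 of the 17 genes of the list that it tested, Spag6, lower. WT testis at P40 held 14510 to 15520 CPM of the same list.

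Of the gene lists, those of the sperm tail sheath and the acrosome held the most calls. DESeq2 called 16 of 32 acrosome genes and 23 of 31 sheath and outer dense fibre genes that it tested lower, against 0 higher in either. All 16 of the first and 21 of the 23 in the second also did not overlap between the ages. Acrv1, an acrosomal matrix protein of round spermatids (ENSMUSG00000032110, chromosome 9, 36693220 to 36698843, plus strand, GRCm38), was at 40.3, 66.6 and 9.38 CPM at P23 and at 2.03, 0.717 and 0.533 CPM at P40. That is a log2 fold change of -5.15 ± 0.93 (DESeq2 adjusted p = 1.26e-08), and it ranged from -5.94 without P40 replicate 1 to -4.51 without P23 replicate 2. Spaca1, which the acrosome needs to form, was at 42.2, 65.7 and 18.7 CPM at P23 and at 7.80, 9.04 and 7.69 CPM at P40. In both genes the age groups were apart although P23 replicate 3 was the lowest of its age. WT testis at P40 held 202 CPM of Acrv1 and 189 CPM of Spaca1 on average, so that the P23 INSL3-KI libraries were themselves below it.

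Akap4, the main structural protein of the fibrous sheath (ENSMUSG00000050089, chromosome X, 7067519 to 7078609, plus strand, GRCm38), was at 186, 264 and 29.8 CPM at P23 and at 12.7, 1.69 and 3.30 CPM at P40 (log2 fold change -4.76 ± 1.13, DESeq2 adjusted p = 5.8e-06). The P40 mean was 27.1 times below the P23 mean, and the log2 fold change was -5.99 without P40 replicate 1 and -4.20 without P23 replicate 2. Prm1, a protamine that packs the DNA of elongating spermatids, was at 47.6, 55.8 and 0.927 CPM at P23 and at 2.89, 0.282 and 0.203 CPM at P40. DESeq2 called it lower (adjusted p = 0.00158), yet its groups overlapped, since P23 replicate 3 held less of it than P40 replicate 1. Prm2 behaved alike at 74.4, 95.5 and 1.04 CPM against 6.68, 0.103 and 0.431 CPM, without a call (DESeq2 adjusted p = 0.0397). Tnp1, a transition protein, was at 15.3, 23.6 and 1.09 CPM at P23 and at 0.988, 0 and 0.152 CPM at P40, and was not called either. In all 3 genes P23 replicates 1 and 2 were the highest and far below the WT means at P40, 1380 CPM for Prm1, 3380 CPM for Prm2 and 488 CPM for Tnp1. Of 15 genes for chromatin condensation in spermatids that DESeq2 tested it called 6 lower, 4 of them without overlap.

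Genes of the flagellum, of sperm metabolism and of the piRNA pathway were lower or overlapped, with 1 exception among the ion channels. Of 58 tested genes for the axoneme 16 were lower in all 3 P40 libraries and 0 higher with TMM, 20 and 0 with Sertoli scaling. DESeq2 called 9 of 57 lower. Of 23 tested metabolic isozymes of sperm 13 were lower and 0 higher, and DESeq2 called 7 of 20 lower. Of 21 tested ion channel genes of sperm 9 were lower and 1 higher, and DESeq2 called 6 of 19 lower. The piRNA pathway, which silences transposons in germ cells, had 12 of 30 tested genes lower and 0 higher, and DESeq2 called 0 of 29.

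**Figure D2:**
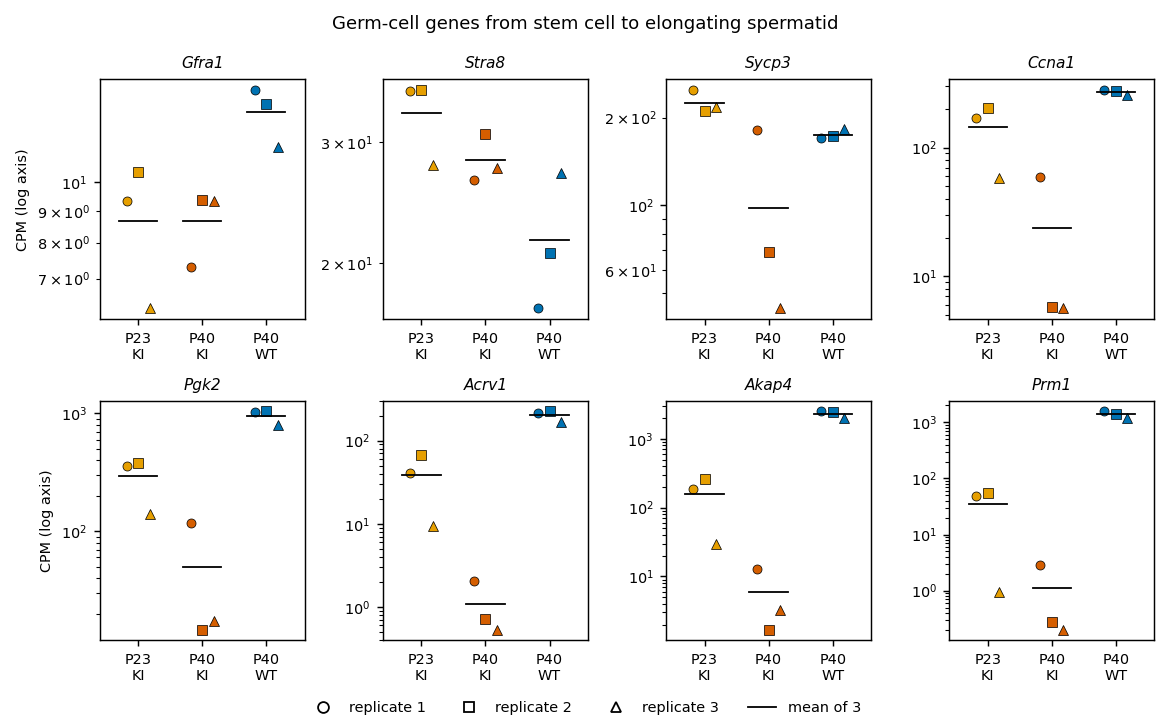
CPM (log axis, a separate range in each panel) of 8 germ-cell genes in the P23 and P40 INSL3-KI (KI) libraries and in WT testis at P40; symbols mark the replicate and lines the mean of 3. Gfra1 and Stra8 overlap between the ages, whereas Acrv1 and Akap4 do not, and in Prm1 P23 replicate 3 (0.927 CPM) lies under P40 replicate 1 (2.89 CPM).

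The genes lower by the largest folds that DESeq2 called, among those without overlap and with a mean of at least 10 CPM at either age, were chosen after their values were seen. The first was Tex29, a testis-expressed gene, at 11.4, 18.7 and 1.58 CPM at P23 and at 0.104, 0 and 0 CPM at P40. Hyal5, a hyaluronidase of the sperm head, was at 19.2, 31.6 and 5.48 CPM at P23 and at 0.468, 0 and 0.0761 CPM at P40. Catsper1, the pore subunit of the sperm calcium channel, was at 14.8, 29.3 and 3.63 CPM at P23 and at 0.468, 0 and 0.228 CPM at P40. The others of the first 10 were Adam20, Adam24, Aldoart1, Armh2, Catsper3, Zfp474 and Zp3r. All 10 were at or near 0 in INSL3-KI testis at P8 as well, with means of at most 0.169 CPM.

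Transcription regulators of the meiotic and spermatid programme were mostly lower or overlapping. Sox30, which starts the spermatid programme, was at 154, 168 and 77.6 CPM at P23 and at 64.3, 15.8 and 11.6 CPM at P40 (log2 fold change -2.13 ± 0.72, edgeR adjusted p = 0.0997, -3.28 without P40 replicate 1). Of 20 tested genes of this list 12 were lower in all 3 P40 libraries, 1 was higher, and DESeq2 called 5 lower. Cpeb2, a cytoplasmic polyadenylation factor, was at 350, 414 and 143 CPM at P23 and at 138, 54 and 43.4 CPM at P40, and DESeq2 called it lower (adjusted p = 0.00951). Its relative Cpeb3 was at 20.1, 21.2 and 17.3 CPM at P23 and at 19.5, 23.7 and 20.3 CPM at P40 and overlapped, while WT testis at P40 held 194 CPM. WT testis at P23 held 192 CPM in the other table, so the INSL3-KI values lay below the WT values at both ages.

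Cell division genes were mostly lower or overlapping. Mki67, the proliferation antigen, was at 101, 108 and 85.5 CPM at P23 and at 82.9, 58.5 and 57.9 CPM at P40. All 3 P40 libraries were below all 3 at P23, P40 replicate 1 narrowly (log2 fold change -0.56 ± 0.20, edgeR adjusted p = 0.0997). Of 33 tested genes for cell division, 15 were lower in all 3 P40 libraries and 3 higher, and DESeq2 called 1 lower, Foxm1.

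Several somatic lists had larger shares of genes higher at P40 than all genes did with TMM, and the counts depended on the scaling. The median log2 fold change of all tested genes was 0.05 with TMM, 0.27 with library size alone and -1.05 with Sertoli scaling. Sertoli cell markers themselves summed to 6073, 4736 and 11080 CPM at P23 and to 11270, 16060 and 15540 CPM at P40, with P23 replicate 3 again beside P40 replicate 1. Sox9, the Sertoli cell transcription factor, was at 69.3, 46.7 and 131 CPM at P23 and at 127, 238 and 215 CPM at P40. Wt1 was at 123, 108 and 211 CPM at P23 and at 227, 318 and 291 CPM at P40. Fshr, the receptor for follicle-stimulating hormone, was at 14.6, 10.3 and 28.9 CPM at P23 and at 30.5, 47.03 and 48.8 CPM at P40. In each of them P23 replicate 3 and P40 replicate 1 were close to each other, as for the spermatocyte genes. Amh, a marker of immature Sertoli cells, was at 35.9, 27.3 and 59.6 CPM at P23 and at 48.9, 82.7 and 79.2 CPM at P40, and the groups overlapped. WT testis at P40 had 6.11 CPM of Amh, and INSL3-KI testis at P8 had 141 CPM. Of 34 tested Sertoli cell genes 13 were higher in all 3 P40 libraries with TMM, and DESeq2 called 1, Trf. Sertoli scaling fixes the balance of this list in advance and gives no count for it.

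Leydig cell sums separated by age, and among the genes named here Cyp17a1, Cyp11a1 and Hsd17b3 did so with P23 replicate 3 lowest of its age. The Leydig cell and steroidogenesis list summed to 2339, 2256 and 3369 CPM at P23 and to 5199, 6194 and 6381 CPM at P40. Of its 32 tested genes 22 were higher in all 3 P40 libraries and 1 was lower, 9 overlapped, and DESeq2 called 13 higher and 0 lower. With Sertoli scaling 9 were higher without overlap and 3 lower. The genes called higher included Star, Hsd17b3, Lhcgr, Cyp17a1, Hao2, Cyp11a1, Prlr, Hsd3b6, Vcam1, Hsd3b1 and Akr1c14. Among these are the carrier of cholesterol into mitochondria, enzymes of the steps from cholesterol to testosterone, and the receptors for luteinizing hormone and prolactin.

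Cyp17a1, the enzyme of androgen precursor synthesis (ENSMUSG00000003555, chromosome 19, 46667165 to 46673172, minus strand, GRCm38), was at 74.1, 85.9 and 63.6 CPM at P23 and at 308, 311 and 329 CPM at P40. The P40 mean was 4.24 times the P23 mean (log2 fold change 2.08 ± 0.18, DESeq2 adjusted p = 8.04e-16, 1.99 to 2.19 with any 1 library left out). Cyp11a1, the side-chain cleavage enzyme that makes pregnenolone, was at 114, 134 and 91.7 CPM at P23 and at 446, 369 and 460 CPM at P40 (DESeq2 adjusted p = 1.66e-09). In both genes P23 replicate 3 was the lowest of its age, and P40 replicate 1 stood with P40 replicates 2 and 3, so that the 2 libraries with like germ-cell sums were on opposite sides. Hsd17b3, which makes testosterone, was at 2.32, 2.01 and 1.45 CPM at P23 and at 13.1, 10.02 and 10.9 CPM at P40 (DESeq2 adjusted p = 1.74e-11), in the same arrangement.

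Star, which carries cholesterol into mitochondria (ENSMUSG00000031574, chromosome 8, 25806555 to 25815982, plus strand, GRCm38), was at 25.9, 29.4 and 104 CPM at P23 and at 180, 381 and 380 CPM at P40 (DESeq2 adjusted p = 0.000936). Lhcgr, the receptor for luteinizing hormone, was at 14.9, 25.1 and 50.4 CPM at P23 and at 141, 157 and 133 CPM at P40 (DESeq2 adjusted p = 6.8e-05). Hsd3b1, the dehydrogenase that follows Cyp11a1, was at 78.3, 94.4 and 171 CPM at P23 and at 281, 289 and 276 CPM at P40 (DESeq2 adjusted p = 0.00498). In these 3 genes P23 replicate 3 was the highest of its age but still below every P40 library. WT testis at P40 averaged 75.8 CPM of Star, 32.7 CPM of Lhcgr and 131 CPM of Hsd3b1, each called lower than in INSL3-KI testis at P40 by edgeR, in a comparison that called 47.6% of 16851 genes. Cyp17a1 and Cyp11a1 averaged 389 and 296 CPM in WT and were not called there, and Hsd17b3 averaged 29.6 CPM and was called lower in INSL3-KI testis. In WT testis at P23, in the other count table, Cyp17a1, Cyp11a1 and Hsd17b3 averaged 280, 246 and 31.2 CPM. All P23 INSL3-KI libraries were below these means. Lhcgr averaged 11.4 CPM there, below all P23 INSL3-KI libraries, and Hsd3b1 averaged 154 CPM, within their range. These differences at P23 were not tested.

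Insl3 counts at the edited locus (ENSMUSG00000079019, chromosome 8, 71689214 to 71690575, plus strand, GRCm38) check the labels only against WT, not against INSL3-KO. They amounted to 1.46, 1.98 and 2.29 CPM at P23 and to 11.6, 11.4 and 12.96 CPM at P40, against means of 951 CPM in WT testis at P23 and 900.0 CPM at P40. All 6 libraries were thus far below WT, while the P40 mean was 6.27 times the P23 mean (log2 fold change 2.65 ± 0.25, DESeq2 adjusted p = 3.05e-17). These counts are of reads assigned to the mouse gene, and what share of them came from the whale cDNA was not tested. Rxfp2, its receptor, was at 4.81, 7.29 and 1.96 CPM at P23 and at 2.11, 0.128 and 0.152 CPM at P40, and overlapped (log2 fold change -2.55 ± 1.15, edgeR adjusted p = 0.122, -5.02 without P40 replicate 1). Insl6, a relative expressed in meiotic germ cells, was at 74.2, 72.4 and 27.9 CPM at P23 and at 33.8, 5.12 and 5.05 CPM at P40 and overlapped.

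Besides Lhcgr, DESeq2 called Esr1 and Prlr higher among the sex hormone receptors. Esr1, the estrogen receptor alpha, was at 15.7, 14.5 and 19.99 CPM at P23 and at 30.7, 39.6 and 39.6 CPM at P40 (log2 fold change 1.13 ± 0.20, DESeq2 adjusted p = 0.000267). Prlr, the prolactin receptor, was at 40.1, 45.2 and 69.8 CPM at P23 and at 123, 179 and 160 CPM at P40 (DESeq2 adjusted p = 4.62e-05). Both were called higher than in WT testis at P40 as well, in a comparison that called 25.5% of 16851 genes higher. Of 10 tested sex hormone receptor genes 5 were higher in all 3 P40 libraries and 0 lower with TMM, and 3 and 2 with Sertoli scaling.

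**Figure D3:**
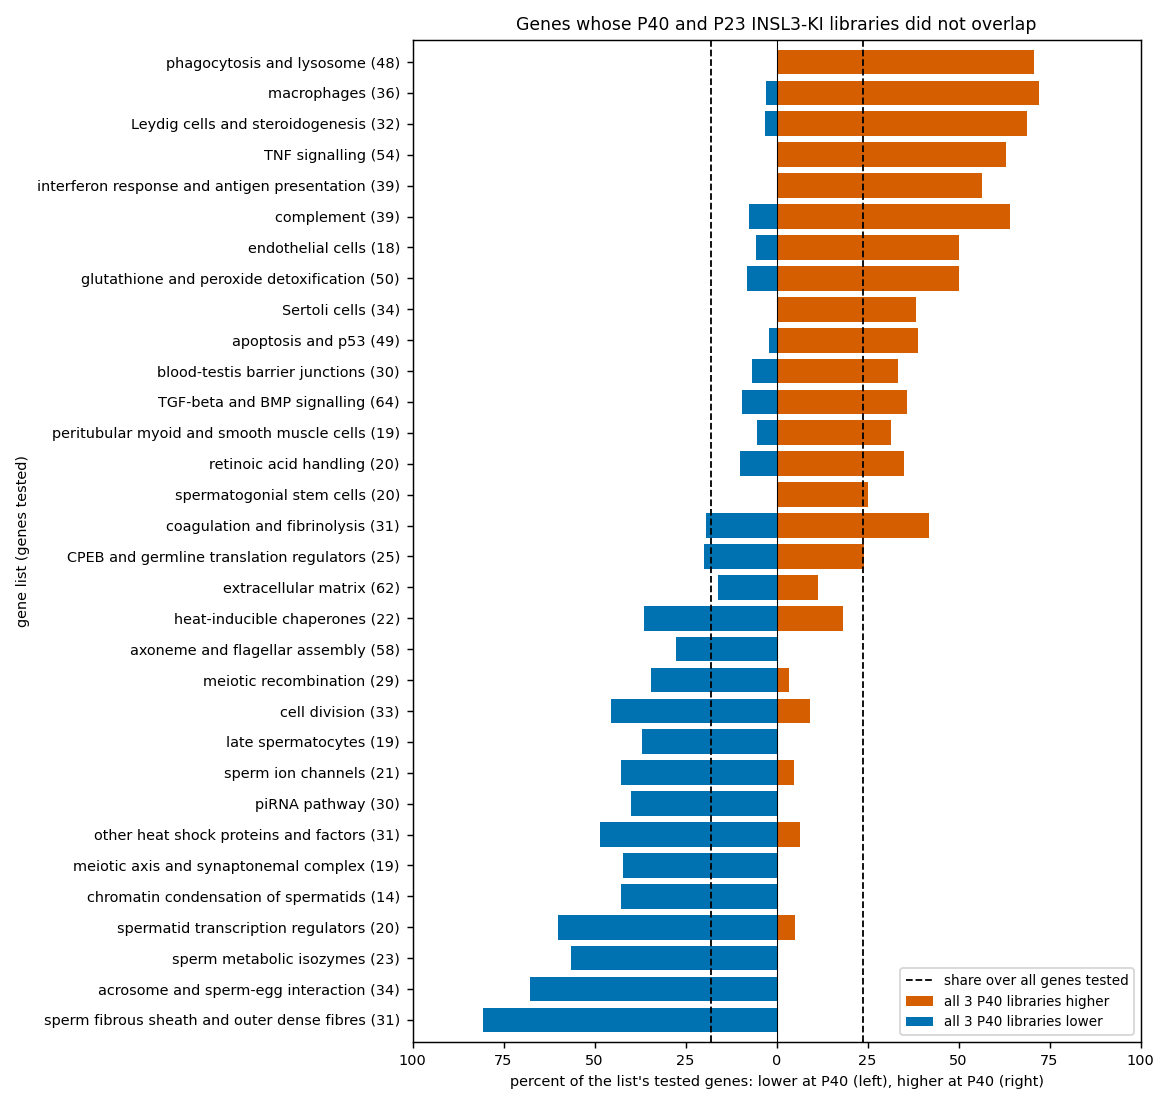
Percent of each list's tested genes (number in brackets, lists of 12 or more) whose 3 P40 INSL3-KI libraries all lay above (right) or below (left) the 3 P23 libraries with TMM scaling; dashed lines mark the shares over all genes, 23.8% and 18.1%. Sheath and acrosome genes stand lowest (80.6% and 67.6% lower) and macrophage, phagocytosis and Leydig genes highest (72.2%, 70.8% and 68.8% higher); with Sertoli scaling 7001 of all genes were lower without overlap and 411 higher.

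Transcripts of macrophages and of antigen presentation were higher at P40. The macrophage list summed to 468, 487 and 760 CPM at P23 and to 953, 1201 and 1381 CPM at P40, and 26 of its 36 tested genes were higher in all 3 P40 libraries with 1 lower, and 6 with 1 lower with Sertoli scaling. DESeq2 called 8 higher (H2-Eb1, H2-Aa, Cd74, Clec7a, Itgam, H2-Ab1, C1qa and Fcer1g) and 1 lower (Aif1). The defining markers were present but moderate. Csf1r, the receptor that macrophages need to survive, was at 40.8, 44.7 and 75.5 CPM at P23 and at 88.7, 127 and 144 CPM at P40 (log2 fold change 1.16 ± 0.31, DESeq2 adjusted p = 0.0172). Adgre1, which encodes the F4/80 antigen, was at 9.29, 10.2 and 16.6 CPM at P23 and at 18.5, 25.1 and 24.0 CPM at P40 (DESeq2 adjusted p = 0.0344), with a sign that turned under Sertoli scaling. Neither was called, and in both P23 replicate 3 was the highest of its age. Lymphocyte markers stayed low, with sums between 7.45 and 11.7 CPM in the 6 libraries, as did those of mast cells and neutrophils, between 2.54 and 5.30 CPM.

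The MHC class II genes, which present antigen to T cells, had log2 fold changes near 3. H2-Aa, the alpha chain of I-A (ENSMUSG00000036594), was at 2.04, 3.09 and 4.58 CPM at P23 and at 19.1, 24.4 and 36.9 CPM at P40 (log2 fold change 3.05 ± 0.41, DESeq2 adjusted p = 1.24e-09). H2-Eb1, the beta chain of I-E (ENSMUSG00000060586), was at 1.71, 1.86 and 3.85 CPM at P23 and at 15.4, 19.98 and 26.5 CPM at P40 (log2 fold change 3.06 ± 0.42, DESeq2 adjusted p = 1.34e-09). Cd74, the invariant chain, was at 7.02, 6.71 and 17.04 CPM at P23 and at 61.6, 73.7 and 108 CPM at P40 (log2 fold change 2.98 ± 0.46, DESeq2 adjusted p = 4.97e-08, 3.57 without P23 replicate 3). In all 3 genes the lowest P40 library was above the highest P23 library, and P23 replicate 3 stood with P23. Ciita, the class II transactivator, chosen after its values were seen, was at 0, 0.180 and 0.245 CPM at P23 and at 0.598, 1.54 and 1.77 CPM at P40, without a call (DESeq2 adjusted p = 0.0166). In WT testis at P40 the means were 8.97 CPM for H2-Aa, 8.83 CPM for H2-Eb1 and 24.3 CPM for Cd74. Against these libraries edgeR called H2-Aa and Cd74 higher in INSL3-KI testis at P40, in a comparison that called 25.5% of 16851 genes higher. H2-Eb1 was not called there (edgeR adjusted p = 0.0369). WT testis at P23, in the other count table, averaged 10.7, 8.73 and 25.4 CPM in the same order. The P23 INSL3-KI libraries were all below these WT means, a difference that was not tested. Of the 39 tested genes of the interferon and antigen presentation list 22 were higher in all 3 P40 libraries and 0 lower with TMM, 4 and 11 with Sertoli scaling, and its 4 calls were the class II genes H2-Eb1, H2-Aa, Cd74 and H2-Ab1.

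Because H2-Aa and H2-Eb1 differed together, their promoter windows are shown as RefSeq gives them for GRCm38.p6, from 250 bases before to 50 after the start of transcription. Capitals mark the letters CTGATTGG, the Y box bound by the factor NF-Y in class II promoters, and in H2-Aa also TGACGTCA, the cAMP response element. The H2-Aa window is chr17:34287774-34288073 on the minus strand and the H2-Eb1 window chr17:34305617-34305916 on the plus strand.
H2-Aa: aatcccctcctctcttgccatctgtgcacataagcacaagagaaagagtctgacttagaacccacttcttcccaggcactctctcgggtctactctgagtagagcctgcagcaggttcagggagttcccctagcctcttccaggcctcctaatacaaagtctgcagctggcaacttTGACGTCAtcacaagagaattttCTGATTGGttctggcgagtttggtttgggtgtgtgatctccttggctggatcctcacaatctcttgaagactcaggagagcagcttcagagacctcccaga
H2-Eb1: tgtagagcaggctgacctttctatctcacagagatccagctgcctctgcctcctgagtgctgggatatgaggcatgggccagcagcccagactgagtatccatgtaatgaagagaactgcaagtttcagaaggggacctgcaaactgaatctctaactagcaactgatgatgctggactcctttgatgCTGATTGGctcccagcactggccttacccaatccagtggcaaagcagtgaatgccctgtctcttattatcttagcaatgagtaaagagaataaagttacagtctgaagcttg
The Y box began 51 bases before the start in H2-Aa and 62 bases before it in H2-Eb1, and TGACGTCA began 74 bases before the start in H2-Aa. On either strand, CTGATTGG was in 4.1% and TGACGTCA in 1.79% of all 32851 windows. The motif CTGATTGG was chosen after the expression values were seen, and a match describes the letters and not a bound site. CTGATTGG also stands, unmarked, in the Hspa1b and Hspa1a windows shown further below. TGACGTCA was also searched in spermatid lists and was in 1 of 27 acrosome genes and 0 of 14 for chromatin condensation. It was in 1 of 27 sheath genes and 1 of 18 spermatid transcription regulators, against 2.03% of all 27025 genes with a window.

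Of the complement list, C3 was among the 10 called genes with the largest folds. C3, the central complement component (ENSMUSG00000024164, chromosome 17, 57203970 to 57228136, minus strand, GRCm38), was at 23.8, 23.2 and 53.9 CPM at P23 and at 192, 264 and 381 CPM at P40. Its P40 mean was 8.3 times the P23 mean (log2 fold change 3.05 ± 0.46, DESeq2 adjusted p = 1.42e-08). WT testis at P40 averaged 32.6 CPM, near the P23 INSL3-KI libraries. C1qa, a chain of the first component made by macrophages, was at 24.0, 24.4 and 41.7 CPM at P23 and at 59.6, 72.3 and 81.7 CPM at P40 (DESeq2 adjusted p = 0.00284). Of 39 tested complement genes 25 were higher in all 3 P40 libraries and 3 lower, and DESeq2 called 8 of 41 higher and 3 lower; with Sertoli scaling 13 stayed higher without overlap and 3 lower.

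Lcn2, which encodes a siderophore-binding lipocalin of the acute phase (ENSMUSG00000026822, chromosome 2, 32384633 to 32388252, minus strand, GRCm38), had the largest fold of the genes called higher under the rule above. It was at 11.1, 7.85 and 20.02 CPM at P23 and at 174, 139 and 176 CPM at P40 (log2 fold change 3.65 ± 0.39, DESeq2 adjusted p = 1.27e-16). WT testis held 405 CPM at P23 and 216 CPM at P40. The P40 INSL3-KI libraries were below the WT mean and not called against it by edgeR. Lrg1, a leucine-rich glycoprotein of the acute phase, was at 2.18, 2.82 and 3.90 CPM at P23 and at 14.9, 21.4 and 31 CPM at P40. Serpina3n, a serine protease inhibitor, was at 4.37, 5.55 and 10.8 CPM at P23 and at 34.2, 46.4 and 61.3 CPM at P40. Agt, the angiotensin precursor, was at 28.7, 28.9 and 74.1 CPM at P23 and at 359, 307 and 344 CPM at P40. WT testis averaged 10.1 CPM of Lrg1 at P23 and 19.1 CPM at P40, and 230 and 192 CPM of Agt. Neither was called between INSL3-KI and WT testis at P40 by edgeR (log2 fold changes 0.25 and 0.84). The others of the first 10 were C3, H2-Eb1, H2-Aa, Cd74, Klk1b27 and Ces1d, and all 10 were chosen after their values were seen.

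**Figure D4:**
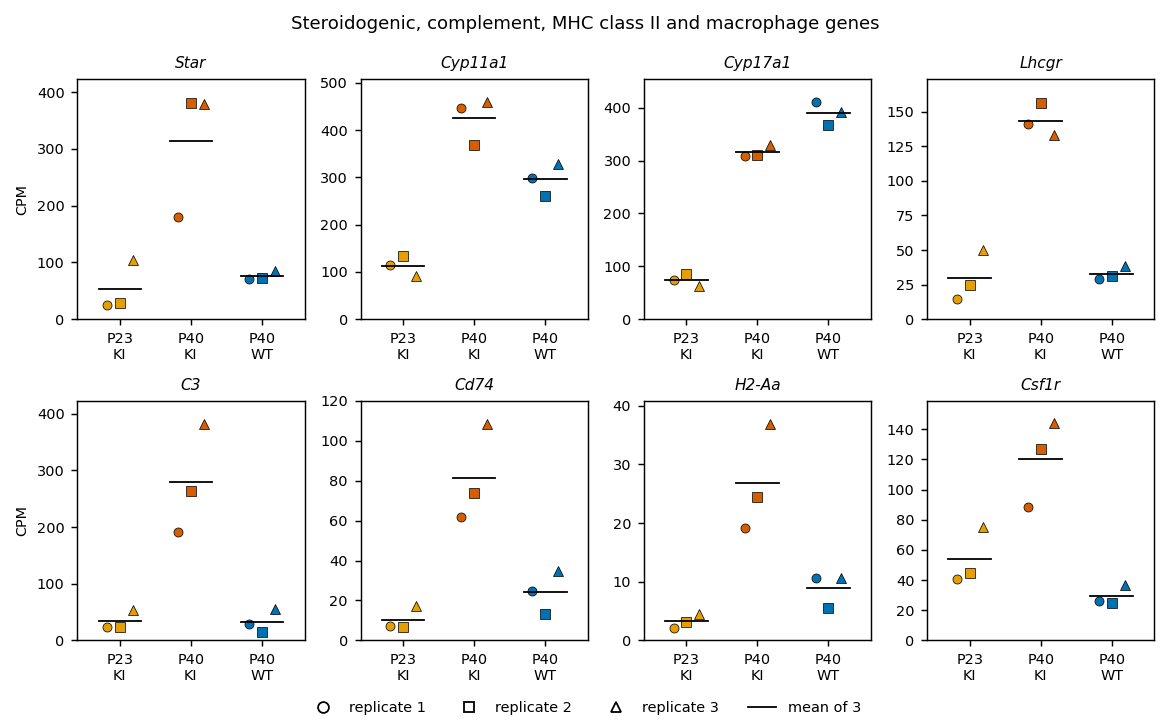
CPM (linear axis from 0) of 8 genes of Leydig cells, complement, MHC class II and macrophages in the P23 and P40 INSL3-KI (KI) libraries and in WT testis at P40; symbols mark the replicate and lines the mean of 3. All 3 P40 INSL3-KI libraries lie above all 3 P23 libraries in each panel on the TMM scale; P23 replicate 3 lies lowest of its age for Cyp11a1 (91.7 CPM) and Cyp17a1 (63.6 CPM).

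Genes for taking up dying cells and for the lysosome stood mostly higher. Of their 48 tested genes 34 were higher in all 3 P40 libraries and 0 lower with TMM, although with Sertoli scaling 6 were higher and 9 lower. Mertk, a receptor with which Sertoli cells and macrophages engulf apoptotic germ cells, was at 23.5, 22.1 and 44.6 CPM at P23 and at 49.2, 79.7 and 71.4 CPM at P40. Axl, of the same receptor family, was at 149, 127 and 273 CPM at P23 and at 282, 416 and 424 CPM at P40. Neither was called, and the gap between P23 replicate 3 and P40 replicate 1 was small in both. Of 54 tested genes for TNF signalling 34 were higher in all 3 P40 libraries and 0 lower, and DESeq2 called 3 of 64 higher, Vegfd, Vcam1 and Creb3l1. With Sertoli scaling 7 of the TNF list were higher and 10 lower.

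The growth factor Tgfb1 was at 31.6, 28.6 and 47.1 CPM at P23 and at 64.8, 90.4 and 86.2 CPM at P40, and DESeq2 called it higher (log2 fold change 1.17 ± 0.25, adjusted p = 0.00311). Interstitial collagen was not higher with it. Col1a1, the main fibrillar collagen, was at 412, 363 and 403 CPM at P23 and at 152, 180 and 289 CPM at P40, so that all 3 P40 libraries were lower (log2 fold change -0.92 ± 0.27, edgeR adjusted p = 0.0997). Col1a2, its partner chain, was at 571, 519 and 627 CPM at P23 and at 345, 455 and 574 CPM at P40, and the groups overlapped. Over the extracellular matrix list 7 of 62 tested genes were higher in all 3 P40 libraries and 10 lower, both under the shares of all genes (with Sertoli scaling 1 and 38), and DESeq2 called 1 higher (Vcan) and 2 lower (Col14a1 and Eln).

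Chaperones that respond to heat lay in both directions. Of 22 tested genes 4 were higher in all 3 P40 libraries and 8 lower (with Sertoli scaling 1 and 16), and DESeq2 called 1 higher, Hspb8, and 1 lower, Dnaja4. Hspa1b, an inducible HSP70, was at 23.9, 17.2 and 29.6 CPM at P23 and at 29.4, 39.3 and 42.9 CPM at P40 (log2 fold change 0.66 ± 0.26, edgeR adjusted p = 0.103), with a sign that turned under Sertoli scaling. Hspa1a, its near-identical neighbour, was at 17.04, 13.6 and 23.8 CPM at P23 and at 21.3, 28.97 and 31.1 CPM at P40. Both overlapped between the ages, and since reads from the pair can be split between them their single values are uncertain. Hspb1, a small heat shock protein, was at 66.4, 51.8 and 137 CPM at P23 and at 148, 214 and 206 CPM at P40, all 3 higher. Hsp90aa1, which spermatocytes express strongly, was at 3341, 3225 and 2208 CPM at P23 and at 2019, 830.3 and 743 CPM at P40, all 3 lower. Hsp90ab1, the constitutive form, was at 1010, 837 and 1213 CPM at P23 and at 1099, 1296 and 1296 CPM at P40 and overlapped. In WT testis at P40 Hspa1b averaged 12.7 CPM and Hsp90ab1 548 CPM, and both were called higher in INSL3-KI testis at P40 by edgeR. That comparison called 25.5% of 16851 genes higher with TMM, and with Sertoli scaling 64 genes higher and 10553 lower.

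The promoter windows of Hspa1b and Hspa1a are shown for the heat shock element, whose letters GAANNTTC are in capitals; they are chr17:34959189-34959488 and chr17:34972107-34972406, both on the minus strand.
Hspa1b: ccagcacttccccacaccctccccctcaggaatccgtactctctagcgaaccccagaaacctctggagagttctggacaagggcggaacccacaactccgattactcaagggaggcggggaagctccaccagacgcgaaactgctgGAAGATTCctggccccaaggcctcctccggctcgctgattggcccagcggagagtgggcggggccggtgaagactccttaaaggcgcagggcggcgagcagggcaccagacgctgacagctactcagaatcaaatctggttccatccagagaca
Hspa1a: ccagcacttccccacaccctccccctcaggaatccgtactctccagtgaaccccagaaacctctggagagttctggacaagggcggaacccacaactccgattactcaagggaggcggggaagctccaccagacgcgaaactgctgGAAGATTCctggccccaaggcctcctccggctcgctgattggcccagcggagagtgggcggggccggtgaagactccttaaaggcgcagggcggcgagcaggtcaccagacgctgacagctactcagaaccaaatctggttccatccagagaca
The element began 104 bases before the start in both windows, which were identical at 296 of 300 positions. It was in 7.86% of all windows. Over genes, 9.04% of all 27025 with a window and 12 of 18 heat-inducible chaperone genes held it. Among these 12, Hspb8 was called higher, Dnaja4 was called lower, and the Hspa1a and Hspa1b groups overlapped.

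Heat shock proteins outside the inducible list were mostly lower or overlapping, with 15 of 31 tested lower and 2 higher. Hspa1l, an HSP70 of spermatids, was at 83.9, 95.0 and 11.3 CPM at P23 and at 9.70, 3.23 and 4.59 CPM at P40, and DESeq2 called it lower (adjusted p = 0.000188). It was 1 of 6 genes called lower among the other heat shock proteins and factors. Of the cold-inducible RNA-binding proteins, Cirbp was at 62.3, 67.7 and 55.2 CPM at P23 and at 60.8, 50.8 and 44.3 CPM at P40. Rbm3 was at 38.4, 47.9 and 49.8 CPM at P23 and at 51.7, 72.5 and 63.7 CPM at P40, all 3 higher with TMM and with a sign that turned under Sertoli scaling. Neither was called.

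**Figure D5:**
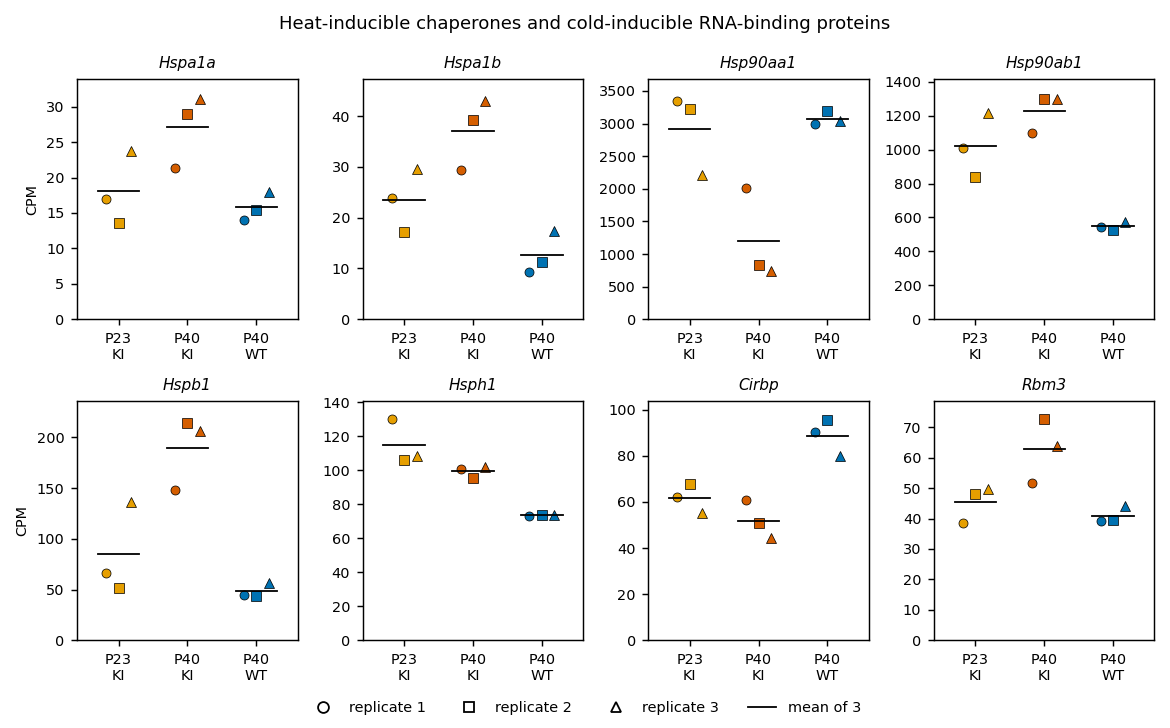
CPM (linear axis from 0) of 6 chaperones and 2 cold-inducible RNA-binding proteins in the P23 and P40 INSL3-KI (KI) libraries and in WT testis at P40; symbols mark the replicate and lines the mean of 3. Hspa1a and Hspa1b overlap between the ages, Hspb1 is higher and Hsp90aa1 lower in all 3 P40 libraries, on the TMM scale.

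Markers of other tissues that a dissected testis can carry were checked in the 6 libraries. Adipocyte markers ranged from 17.1 to 82.3 CPM at P23 and from 40.3 to 163 CPM at P40, and P40 replicate 3 was the highest. Markers of epididymis and efferent duct summed to between 51.3 and 113 CPM, those of liver to between 5.97 and 10.9 CPM. Skeletal muscle markers summed to 81.1, 79.2 and 113 CPM at P23 and to 133, 193 and 171 CPM at P40, most of it Actn3, which DESeq2 called higher, while Ckm and Acta1 were under 1 CPM in every library. Erythroid markers summed to between 129 and 253 CPM at P23 and between 93.6 and 140 CPM at P40, and overlapped, with Hbb-bs at 43.9, 66.2 and 89.8 CPM at P23 and at 24.2, 43.1 and 42.5 CPM at P40. Their part in the results was not tested.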

How the data were processed

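Testis RNA was sequenced as paired-end mRNA libraries, mapped with HISAT2 (GRCm38 per the processing notes) and deposited by the authors as raw counts per gene and as FPKM per gene; the counting program and annotation release are not given in the sources used here. FPKM values deposited by the authors are normalised for gene length and depth. Groups came from the labels. Loci outside Ensembl (2.95% to 3.26% of counts) were left out. Counts were tested in edgeR 4.0.16 (filterByExpr, TMM, quasi-likelihood, Benjamini-Hochberg over 16491 genes, calls at an adjusted p below 0.01 with a 2-fold difference, as the study set them), P40 against P23 INSL3-KI testis, 3 libraries each, and separately P40 INSL3-KI against P40 WT. The alternatives were DESeq2 1.42.0, limma 3.58.1 on log2(FPKM + 1) and log2(FPKM + 0.1), other scalings, no filter, 1 fit of all testis libraries, genes of both tables, a replicate block, a fold of 4 and leaving out libraries. WT testis at P23 stands in the other count table, which lists other features, so its CPM, scaled to the same reference library, are set beside the others without a test. Scripts were tested on simulated data.

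The libraries, the 44 gene lists and the rules were chosen with earlier results of these data known. Named genes were Insl3, Rxfp2, Hspa1b, Hsp90ab1, Rec8 and Cpeb3, the first 3 tested genes of each list, all genes of lists with 12 or fewer tested, and called genes with the largest folds without overlap and a mean of at least 10 CPM at either age, predicted genes left out (none with edgeR); Ciita, Hsd3b1, Hsd17b3, Hspb1 and Hsp90aa1 were chosen after their values were seen, as were the 10 genes per direction with the largest DESeq2 folds. Coordinates are those of GENCODE M21 (GRCm38) by Ensembl identifier. Some genes of the lists are not reported here by name.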

Additional observations from a re-analysis of the deposited data

Results flagged for a closer look

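In 6 gene lists, the summed CPM of the P23 and P40 libraries did not overlap in INSL3-KI testis or in WT testis. The direction in INSL3-KI testis was opposite to that in WT testis. WT testis at P23 stands in another count table, so the difference was not tested. The log2 ratio of the P40 to the P23 mean in INSL3-KI testis was 0.97 for Sertoli cells, 1.04 for macrophages, 1.20 for complement, 0.04 for apoptosis and p53, 0.16 for glutathione and peroxide detoxification and -0.89 for cell division. In WT testis it was -0.21, -0.51, -0.37, -0.17, -0.35 and 0.13 in the same order. For apoptosis and p53 both ratios were small.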

How the results depend on the processing

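Between P40 and P23 INSL3-KI testis, edgeR called 0 genes higher and 0 lower also with library size only, Sertoli scaling, no low-count filter, genes of both tables, a fold of 4 and the replicate block, and limma called 0 with either pseudocount. Leaving out each library in turn gave 0 to 0 in both directions. DESeq2 called 305 higher and 898 lower, and 1 fit of all testis libraries 370 and 1026. Without P23 INSL3-KI replicate 3 and P40 INSL3-KI replicate 1, chosen after seeing the data, edgeR called 3223 and 4370 and DESeq2 2788 and 4621. In simulated counts of the same 6 libraries edgeR called 0% of 2-fold, 53.7% of 4-fold and 95.5% of 8-fold changes. The simulation drew each gene on its own, without the difference that P23 replicate 3 and P40 replicate 1 share across genes. These shares therefore do not give the power of the test in the real libraries. Deviations of same-numbered libraries from their age means correlated at 0.656, -0.564 and 0.609, and those of all pairs ranged from -0.713 to 0.656. With 3 libraries per age, of which 1 stood apart, these values cannot show whether the replicate numbers mark a pairing. P40 INSL3-KI against P40 WT testis gave 4296 higher and 3718 lower, 6624 and 2495 with library size only, 4024 and 5496 with DESeq2 (42.3% of its calls higher, against 53.6%), 64 higher and 10553 lower with Sertoli scaling, 3902 and 3381 with the replicate block, and 3339 to 4794 higher and 2290 to 5330 lower with 1 library left out, lowest without P40 WT replicate 1 or 2 (2290 and 2306 lower).

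Of 64 named fold changes, 12 changed sign in at least 1 setting. Under Sertoli scaling the all-gene median was -1.05 in place of 0.05, a shift that by itself turns the sign of small positive folds. These were Etv5 (-0.32), Kit (-0.58), Cpeb3 (-1.05), Wt1 (-0.08), Amh (-0.22), Adgre1 (-0.13), Hspa1a (-0.46), Hspa1b (-0.39), Hsp90ab1 (-0.79) and Rbm3 (-0.66), of which Wt1 and Amh are on the scaling list. With library size only Rec8 (0.08) and Hsph1 (0.03) did. On FPKM with a pseudocount of 1 and 0.1, Cpeb3 gave -0.07 and -0.09 and Rec8 0.07 and 0.07. In DESeq2 without both libraries Cpeb3 gave -0.01. The cause was not tested.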

Other observations

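In INSL3-KI testis at P8, the late spermatocyte list summed to 428.3 CPM in replicate 1, 2914 CPM in replicate 2 and 365.6 CPM in replicate 3. Replicate 2 was the highest of the 3 by a wide margin. The general germ-cell list summed to 1281, 2013 and 1067 CPM in the same order.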
